A study of Drosophila melanogaster with 6 samples.

Results

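The genes described here were *Ilp8*, the gene of a peptide hormone released by damaged imaginal discs, and the 4 leucine-rich repeat-containing G protein-coupled receptor (LGR) genes of *Drosophila melanogaster*, *Lgr1*, *Lgr3*, *Lgr4* and *rk*. These 5 genes were taken by their FlyBase symbols, and all 5 were found among the 16455 genes of the files. RNA-seq had been performed on pools of wing imaginal discs of larvae in the third instar. In 3 libraries, labelled *CR40469*-KO, the larvae were, by label and by the methods of the study, homozygous for a deletion of the long non-coding RNA (lncRNA) gene *CR40469*, whose locus had been replaced by an *mCherry* cassette, and carried *salE/Pv-LHG:tub-Gal80TS* and *lexO-rpr*. In 3 libraries, labelled control, the larvae carried the same transgenes without the deletion. In all 6 libraries the proapoptotic gene *rpr* had been expressed for 16 h in the *spalt* domain, the central zone of the wing disc where the *salE/Pv* driver is active. Every disc was therefore damaged, and discs without cell death were not analysed here, so the response of these genes to damage itself is not measured. The sex of the larvae is not given in the sources used here.

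Ilp8 belongs to the insulin and relaxin family of secreted peptides. Discs that are injured, or that grow abnormally, release it, and it acts on neurons of the brain that carry Lgr3, which holds back the production of ecdysone and delays pupariation until the tissue has recovered. The LGRs join a large extracellular domain of leucine-rich repeats, which binds the hormone, to a membrane domain that signals through G proteins and often cyclic AMP. Lgr3 and Lgr4 resemble the mammalian relaxin receptors, and Ilp7 has been described as a ligand of Lgr4. The product of *rk* (rickets) is the receptor of bursicon, the dimer of Burs and Pburs that drives tanning of the cuticle and expansion of the wing after eclosion. Lgr1 resembles the vertebrate glycoprotein hormone receptors, and its ligand is a dimer of Gpa2 and Gpb5.

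The deleted gene was examined first. *CR40469* had 535.93, 389.21 and 293.78 TPM (a transcript level scaled to a fixed total per library and corrected for transcript length) in the libraries labelled *CR40469*-KO, against 99.61, 46.44 and 82.52 TPM in the libraries labelled control. It was thus higher in every library labelled *CR40469*-KO, with a log2 fold change of 2.43 (SE 0.32, limma adjusted p = 0.0280). The deleted gene goes against the labels, and each group is named by its label throughout. Whether the labels were exchanged was not tested. If they were, every direction given here would turn round. The sequence of *CR40469* is duplicated in *CR34335*, so both genes are uncertain where reads could be divided between them, and the part of this in their levels was not tested. *CR34335* had 1938.29, 1928.63 and 1902.09 TPM in the libraries labelled *CR40469*-KO, against 3521.64, 2442.97 and 3201.91 TPM in those labelled control. Wing disc markers were present, with *nub* at 50.51 TPM or more and *vg* at 44.42 TPM or more in all 6 libraries. The sequencing depth cannot be read from TPM, and the counting error of each value was not estimated here. The replicates are described as biological replicates, each of pooled discs, and the tests measure the spread between these pools. Both libraries of replicate 1 stood apart in *chinmo* and *ftz-f1*, as given below beside *Ilp8*, and results are also given without them.

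Of the 5 genes, *Ilp8*, *Lgr4* and *rk* reached 1 TPM in at least 1 library and were tested among 8051 genes with limma on log2(TPM + 1). *Lgr4* passed this filter only through the libraries labelled *CR40469*-KO. *Lgr1* and *Lgr3* stayed under the filter. None of the 3 tested genes was called at an adjusted p under 0.05 and a fold change over 1.7, thresholds that 0.224% of all tested genes passed. Of all tested genes, 0.149% were called as higher and 0.0745% as lower in the libraries labelled *CR40469*-KO. At an unadjusted p under 0.05, 1 of the 3 passed, *Lgr4*, beside 4.82% of all tested genes. Over all tested genes the median log2 fold change was 0.125 towards the libraries labelled *CR40469*-KO, and changes are to be read against that shift.

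**Figure D1:**
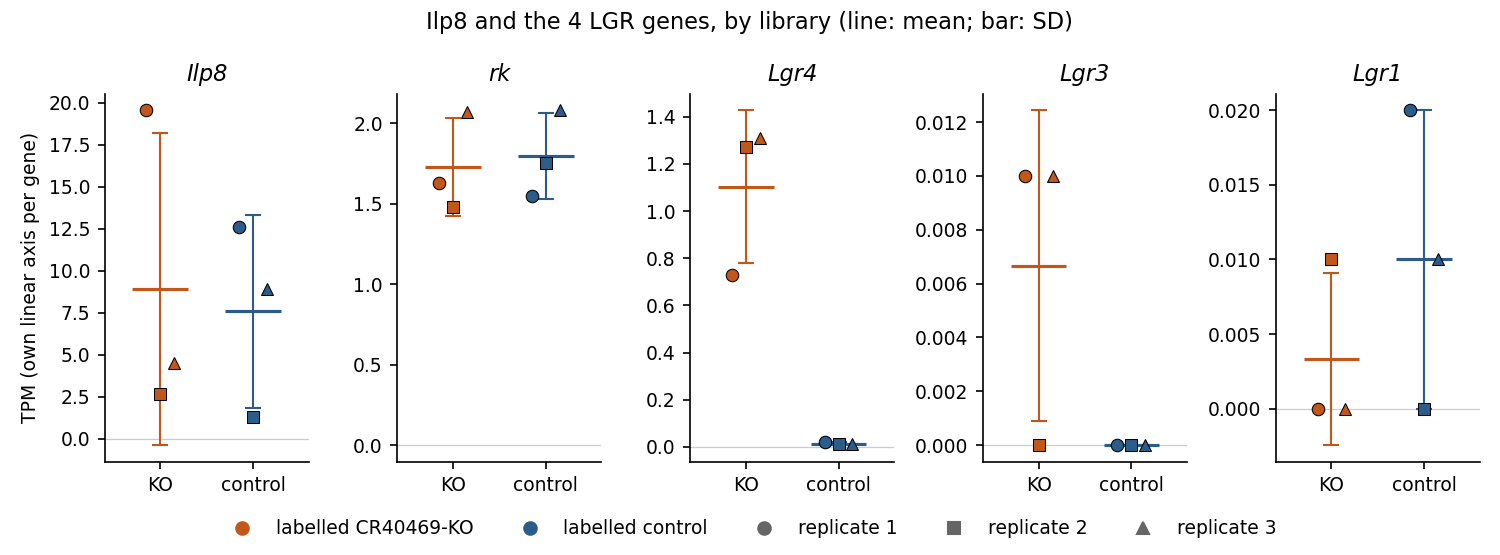
TPM of the 5 genes in each library, with a linear axis of its own for each gene, the libraries labelled *CR40469*-KO to the left of those labelled control, horizontal lines for group means and bars for the SD (n = 3). Both groups spread widely and overlap in *Ilp8*, overlap closely in *rk*, and do not overlap in *Lgr4*, while *Lgr3* and *Lgr1* stay at or below 0.02 TPM.

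*Ilp8* (FBgn0036690) lies on the minus strand of chromosome 3L of dm6, from 17029812 to 17032080, with a single annotated transcript of 867 nt in 3 exons. Its level was 19.55 TPM in replicate 1, 2.65 TPM in replicate 2 and 4.48 TPM in replicate 3 of the libraries labelled *CR40469*-KO, against 12.58, 1.29 and 8.89 TPM in replicates 1, 2 and 3 of those labelled control. Replicate 1 was the highest library of each group and replicate 2 the lowest, and the groups overlapped almost completely. The means were 8.89 ± 9.27 TPM in the libraries labelled *CR40469*-KO and 7.59 ± 5.76 TPM in those labelled control (SD, n = 3 each).

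The difference between the groups was far smaller than the spread within them. The log2 fold change was 0.14 with a standard error of 0.78 and a 95% interval of -1.65 to 1.93 (limma adjusted p = 0.944), so that a change of severalfold in either direction lies within the interval. The two-sided exact permutation test gave p = 1.0, where the smallest p that 3 against 3 libraries allow is 0.10. Without control replicate 2 the log2 fold change was -0.64, without *CR40469*-KO replicate 1 it was -0.59, and without replicate 1 of both groups it was -0.09, each with the opposite sign (limma adjusted p = 0.551, 0.999 and 1.0). An equal level of *Ilp8* in both groups is therefore not shown.

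The spread of *Ilp8* was unusual among the genes of these libraries. Its residual standard deviation within the groups was 1.34 on the log2(TPM + 1) scale, larger than that of 99.8% of all tested genes. Within the libraries labelled *CR40469*-KO the highest library had 7.38 times the TPM of the lowest, and within those labelled control it had 9.75 times. The expression of *rpr*, which starts the cell death, did not have this spread. *rpr* had 144.06, 189.81 and 164.11 TPM in the libraries labelled *CR40469*-KO, against 132.26, 122.67 and 143.52 TPM in those labelled control. The library with the most *Ilp8*, *CR40469*-KO replicate 1, had the least *rpr* of its group. The library with the least *Ilp8*, control replicate 2, also had the least *rpr* of its group. The part of *rpr* in the spread of *Ilp8* was not tested.

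Genes of developmental timing were set beside *Ilp8* from the list of ecdysone genes. *chinmo*, *ftz-f1* and *Hr3* were singled out after their values were seen. *chinmo*, a transcription factor gene of the younger larval disc, had 9.22, 0.39 and 0.52 TPM in the libraries labelled *CR40469*-KO, against 3.65, 0.61 and 0.52 TPM in those labelled control. Its highest libraries were both of replicate 1, the same libraries that were highest in *Ilp8*. The nuclear receptor gene *ftz-f1* was highest in the same libraries, with 8.82, 1.35 and 1.41 TPM in the libraries labelled *CR40469*-KO, against 6.22, 1.7 and 1.47 TPM in those labelled control. *Hr3*, a nuclear receptor gene induced by ecdysone, ran the other way. It had 7.70, 35.43 and 30.37 TPM in the libraries labelled *CR40469*-KO, against 10.51, 16.93 and 9.78 TPM in those labelled control. The 3 libraries with the most *Ilp8*, which are *CR40469*-KO replicate 1 and control replicates 1 and 3, were the 3 libraries with the least *Hr3*. Control replicate 3 had 8.89 TPM of *Ilp8* with *chinmo* at 0.52 TPM, so *chinmo* and *Ilp8* did not go together in that library. The part of these timing genes in the spread of *Ilp8* was not tested.

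**Figure D2:**
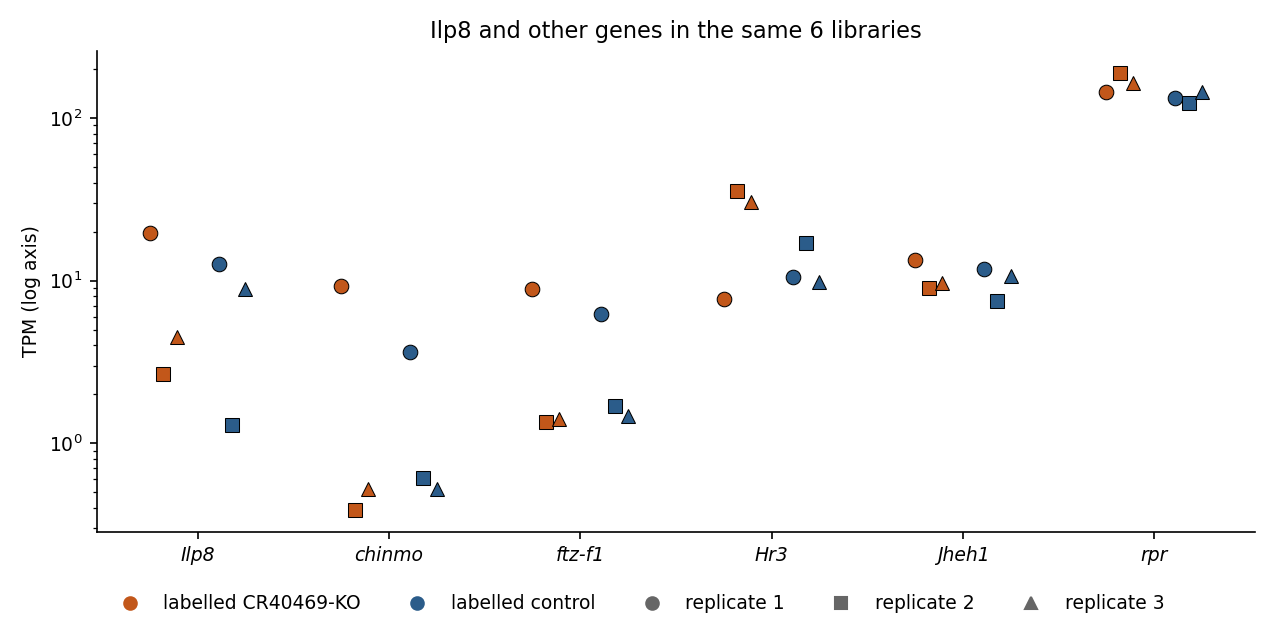
TPM on a log axis of *Ilp8*, *chinmo*, *ftz-f1*, *Hr3*, *Jheh1* and *rpr* in each library, the libraries labelled *CR40469*-KO to the left of those labelled control and a marker shape for each replicate number. The circles of replicate 1 are at the top in *Ilp8*, *chinmo* and *ftz-f1*, while in *Hr3* the lowest points are *CR40469*-KO replicate 1 and control replicates 3 and 1.

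The 3 tested genes whose log2(TPM + 1) followed *Ilp8* most closely were found by Pearson's r over the 6 libraries, given as a description. They were *Jheh1* (r = 0.988), the lncRNA gene *CR45465* (r = 0.985) and *Sr-CI* (r = 0.984). *Jheh1*, an epoxide hydrolase gene of juvenile hormone breakdown, had 13.30, 9.05 and 9.68 TPM in the libraries labelled *CR40469*-KO, against 11.70, 7.48 and 10.62 TPM in those labelled control. Its order over all 6 libraries was that of *Ilp8*, but its range was much narrower. *Sr-CI*, a scavenger receptor gene of haemocytes, had 1.05, 0.19 and 0.46 TPM in the libraries labelled *CR40469*-KO, against 0.82, 0.11 and 0.54 TPM in those labelled control. All 6 haemocyte markers were found, and none was at 0 in every library. Their summed level was 4.54 to 8.56 TPM in the libraries labelled *CR40469*-KO and 2.24 to 7.39 TPM in those labelled control. The haemocyte marker *Hml* had 0.85, 0.14 and 0.22 TPM in the libraries labelled *CR40469*-KO, against 0.45, 0.06 and 0.28 TPM in those labelled control. *Hml* thus had the same highest and lowest library in each group as *Ilp8*. The other 5 haemocyte markers were *He* and *Pxn* as the most abundant, with *NimC1*, *eater* and *srp*. Unlike *Ilp8*, their highest library among those labelled control was replicate 3. *He*, *Pxn*, *NimC1* and *eater*, but not *srp*, shared with *Ilp8* the highest library labelled *CR40469*-KO, replicate 1, and the lowest labelled control, replicate 2. *He* had 2.65, 1.33 and 1.27 TPM in the libraries labelled *CR40469*-KO, against 1.32, 0.99 and 2.51 TPM in those labelled control. The part of haemocytes in the spread of *Ilp8* was not tested. In these bulk samples, fewer cells of a type and less RNA per cell cannot be told apart.

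The genes beside *Ilp8* on chromosome 3L had a narrower spread. *CG7730* overlaps the end of *Ilp8* by 3 bp on the opposite strand. It had 8.34, 6.98 and 7.0 TPM in the libraries labelled *CR40469*-KO, against 10.59, 5.84 and 8.64 TPM in those labelled control. Within each label its highest library was replicate 1 and its lowest replicate 2, as for *Ilp8*. The lncRNA gene *CR45756*, which overlaps the first 26 bp of *Ilp8*, was at 0.09 TPM in *CR40469*-KO replicate 1 and listed at 0 in the other libraries. *Fit2* and *beg*, the nearest expressed genes on either side that do not overlap it, were between 11.04 and 25.40 TPM, with a limma adjusted p of 0.819 each.

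Of the other ligands on the list, only *Ilp6* was above 1 TPM in all 6 libraries. *Ilp1*, *Ilp2*, *Ilp3* and *Burs* were listed at 0 in all 6 libraries. *Ilp7*, the ligand described for Lgr4, was listed at 0 in all libraries labelled *CR40469*-KO and reached 0.03 TPM in 1 library labelled control. *Gpa2* reached 0.13 TPM and *Gpb5* 0.07 TPM, each in 1 library labelled *CR40469*-KO. *Pburs*, the partner of *Burs* in bursicon, had 0.19, 0.68 and 1.44 TPM in the libraries labelled *CR40469*-KO, against 0.15, 0.42 and 0.36 TPM in those labelled control. Only *CR40469*-KO replicate 3 was past 1 TPM, and the groups overlapped (log2 fold change 0.38, SE 0.25, limma adjusted p = 0.819). *Ilp6*, an insulin-like peptide gene of the fat body and glia, had 2.10, 2.36 and 2.38 TPM in the libraries labelled *CR40469*-KO, against 1.10, 2.11 and 2.38 TPM in those labelled control. The groups overlapped in *Ilp6* as well (log2 fold change 0.22, SE 0.20, limma adjusted p = 0.819). Of the 11 ligand and insulin-like peptide genes on the list, 2 were tested and none was called, and the other 9 stayed at or below 0.36 TPM.

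*Lgr3* (FBgn0039354), the receptor gene of Ilp8, lies on the plus strand of chromosome 3R, from 25665809 to 25677214, with a transcript of 3005 nt in 11 exons. It had 0.01, 0 and 0.01 TPM in the libraries labelled *CR40469*-KO, against 0 in all 3 libraries labelled control. These are the smallest steps that the 2 decimals of the files can show, and no difference can be read from them. The lncRNA gene *CR45225* lies within *Lgr3* on the opposite strand, with 893 bp shared between exons of the pair. *CR45225* had 4.68, 2.17 and 2.67 TPM in the libraries labelled *CR40469*-KO, against 2.90, 3.53 and 3.43 TPM in those labelled control. *CG4730*, which overlaps the end of *Lgr3* by 143 bp on the opposite strand, was at 12.33 TPM or more in every library. Both genes that overlap *Lgr3* were thus expressed, while *Lgr3* itself stayed at or under 0.01 TPM. Whether reads were assigned by strand is not given in the sources used here, so reads of overlapping exons cannot be told apart here or at the other loci.

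*Lgr4* (FBgn0085440) lies on the minus strand of chromosome X, from 13161714 to 13189164, with 2 annotated transcripts of 2870 and 2975 nt, the first listed in 18 exons. It had 0.73, 1.27 and 1.31 TPM in the libraries labelled *CR40469*-KO, against 0.02, 0.01 and 0.01 TPM in the libraries labelled control. The groups did not overlap, and the closest libraries were 0.73 TPM in *CR40469*-KO replicate 1 and 0.02 TPM in control replicate 1. Among all tested genes, 10.5% did not overlap, 7.90% in this direction and 2.56% in the other. The study, which used DESeq2, listed *Lgr4* among the differentially expressed genes of these same libraries, so its difference is no independent evidence.

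On the log2(TPM + 1) scale the log2 fold change of *Lgr4* was 1.04 (SE 0.16, 95% interval 0.68 to 1.40), with an unadjusted p of 1.53e-04 and an adjusted p of 0.0536 from limma. This scale understates the change of a gene whose level is near 0. Since the libraries labelled control were at the rounding of the files, the fitted value depends on the pseudocount, and with 0.1 in place of 1 the log2 fold change was 3.37 (SE 0.23, limma adjusted p = 1.72e-03), where 0.286% of all tested genes were called. The call also depended on the libraries. Without *CR40469*-KO replicate 1 the limma adjusted p was 0.0138, and without replicate 1 of both groups it was 0.0169, but these are the libraries in which the groups were closest, so leaving them out had to widen the difference. In the other 5 fits without 1 library the limma adjusted p was 0.120 to 0.292. It was 0.156 with no filter on low values, 0.0806 after median-ratio scaling and 0.109 with a variance trend. *Lgr4* entered the test only through the group in which it was higher, so these values describe its difference and do not support it. The two-sided exact permutation test gave p = 0.10, the smallest that 3 against 3 libraries allow. Even in the libraries labelled *CR40469*-KO, *Lgr4* was a low transcript, and the percentile of its level among the genes of the files was at most 54.2.

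The genes that overlap *Lgr4* were examined next. *CG32640* and *CG32641* both lie within the first intron of *Lgr4*, which is 15728 bp long, on the opposite strand and without exonic overlap. *CG32640* lies from 13178005 to 13178523 and *CG32641* from 13184478 to 13184996. Each spans 519 bp with exons of 43 and 423 bp, so that their annotated lengths are the same. Whether they share reads could not be examined, since no genome sequence was used here. *CG32640* had 73.03, 68.44 and 54.11 TPM in the libraries labelled *CR40469*-KO, against 111.72, 143.40 and 189.57 TPM in those labelled control. It was lower in every library labelled *CR40469*-KO (log2 fold change -1.15, SE 0.22, limma adjusted p = 0.116). *CG32641* had 100.36, 165.92 and 152.75 TPM in the libraries labelled *CR40469*-KO, against 89.64, 29.71 and 25.63 TPM in those labelled control. It was higher in every library labelled *CR40469*-KO (log2 fold change 1.71, SE 0.44, limma adjusted p = 0.385).

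The pair thus split by label in opposite directions, and the sum of the pair did not. The sum was 173, 234 and 207 TPM in the libraries labelled *CR40469*-KO, against 201, 173 and 215 TPM in those labelled control (log2 fold change 0.06, SE 0.17, limma adjusted p = 0.902). *CG32641* made up 57.9, 70.8 and 73.8% of the sum in the libraries labelled *CR40469*-KO, against 44.5, 17.2 and 11.9% in those labelled control. Replicate 1 of each label was the library closest to the other label. Without replicate 1 of both groups, which had to widen the difference, the log2 fold changes were -1.42 and 2.49 (limma adjusted p = 0.0278 and 9.63e-04, with 0.531% of the genes tested in that fit called), and these values are no support for a difference.

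**Figure D3:**
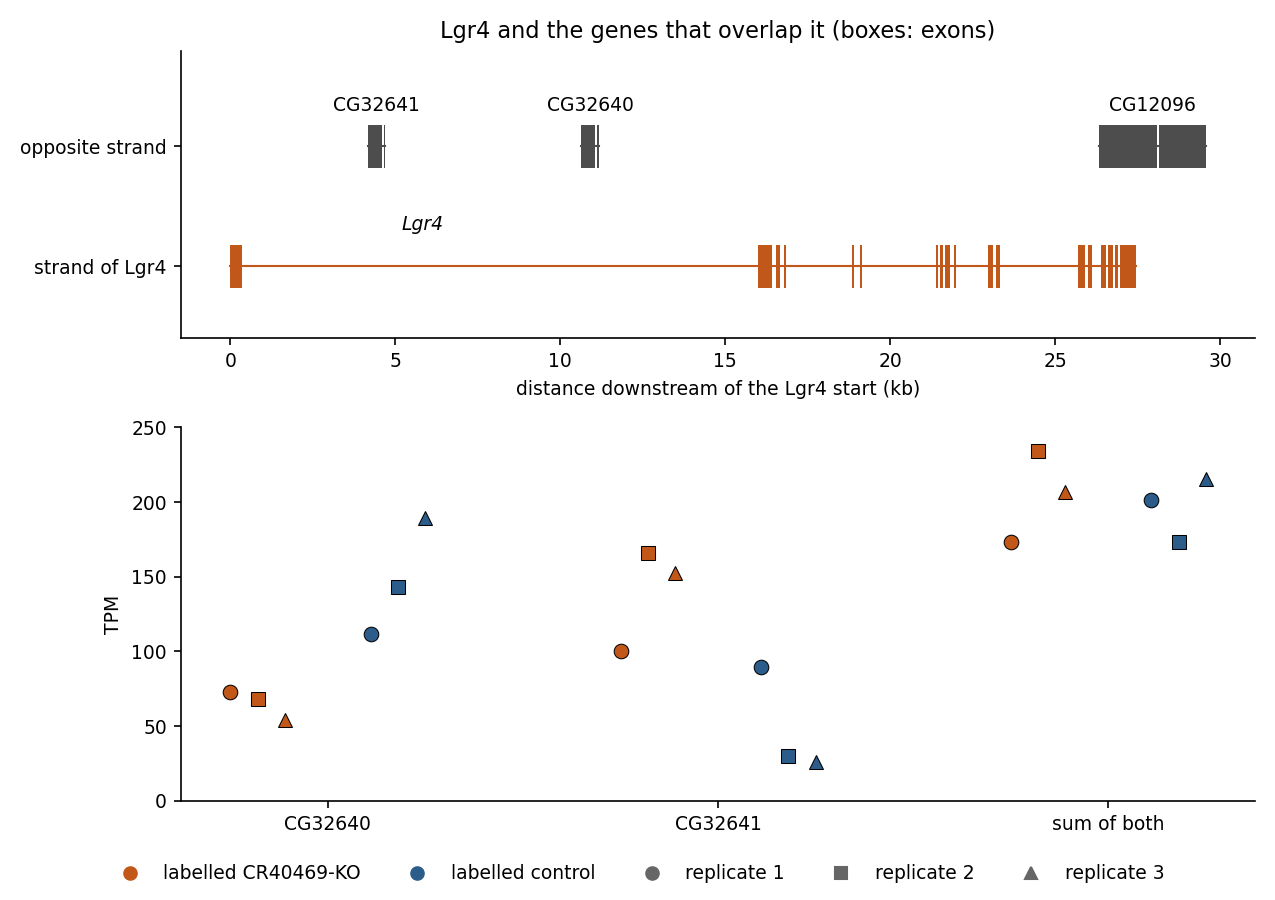
Top, *Lgr4* and the genes that overlap it, in kb downstream of the *Lgr4* start, with boxes for exons and a row for each strand. Bottom, TPM of *CG32640*, *CG32641* and their sum in each library, the libraries labelled *CR40469*-KO to the left of those labelled control. Each gene separates the labels in its own direction. The sums overlap, at 173 to 234 TPM in the libraries labelled *CR40469*-KO and 173 to 215 TPM in those labelled control.

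No neighbour of *Lgr4*, overlapping or not, was called in the main test. *CG12096* overlaps the end of *Lgr4* on the opposite strand, with 868 bp shared between exons. It had 45.28, 34.68 and 34.24 TPM in the libraries labelled *CR40469*-KO, against 28.92, 40.06 and 33.79 TPM in those labelled control (log2 fold change 0.15, SE 0.18, limma adjusted p = 0.819). *Lgr4* was at 0.01 to 0.02 TPM in the libraries labelled control, where *CG12096* was at 28.92 to 40.06 TPM. The part of reads from *CG12096* in the level of *Lgr4* was not tested. *Bap60*, the subunit gene of the Brahma complex next to this locus, and *CG4332* and *Coq5* had log2 fold changes of 0.08, 0.11 and 0.26. The groups did not overlap in *Coq5*, beside 7.90% of all tested genes in its direction. *CG12723*, 479 bp upstream of *Lgr4*, stayed at or under 0.07 TPM.

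The 3 tested genes whose log2(TPM + 1) followed *Lgr4* most closely over the 6 libraries were *Cpr47Ee* (r = 0.999), *wmd* (r = 0.983) and the hairpin RNA gene *CR33940* (r = 0.980). All 3 genes, like *Lgr4*, were higher in every library labelled *CR40469*-KO, and r includes that difference between the labels. *Cpr47Ee*, a cuticle protein gene, had 1.09, 1.99 and 2.17 TPM in the libraries labelled *CR40469*-KO, against 0.17, 0.12 and 0.16 TPM in those labelled control. Like *Lgr4*, it was lower in *CR40469*-KO replicate 1 than in replicates 2 and 3. *wmd* had 95.44, 100.80 and 103.84 TPM in the libraries labelled *CR40469*-KO, against 87.41, 84.42 and 83.31 TPM in those labelled control, a much smaller difference (log2 fold change 0.23). *CR33940* had 61.20, 72.50 and 72.77 TPM in the libraries labelled *CR40469*-KO, against 20.27, 15.35 and 17.09 TPM in those labelled control, and was the only called gene of the 3 (log2 fold change 1.92, limma adjusted p = 2.39e-03).

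Summed marker levels of other tissues were set beside *Lgr4*. The 4 tracheal markers, none at 0, summed to 377 to 471 TPM in the libraries labelled *CR40469*-KO and to 302 to 347 TPM in those labelled control. The 7 fat body markers, none at 0 in every library, summed to 8.20 to 13.1 TPM in the libraries labelled *CR40469*-KO and to 11.7 to 19.0 TPM in those labelled control. The 5 neuronal markers summed to 9.46 to 12.5 TPM in the libraries labelled *CR40469*-KO and to 6.82 to 9.58 TPM in those labelled control. The neuronal sum was mostly from *elav*, and the other 4 markers stayed at or below 0.38 TPM. The 2 glial markers summed to 5.45 to 6.50 TPM in the libraries labelled *CR40469*-KO and to 4.54 to 5.19 TPM in those labelled control, mostly from *moody*, with *repo* at 0.12 TPM or less. As TPM without further scaling, the tracheal and glial sums thus did not overlap between the labels, and the fat body and neuronal sums did. The factors of median-ratio scaling ran from 0.88 in control replicate 1 to 1.16 in *CR40469*-KO replicate 1. They were not applied to these sums, and whether the sums stay apart after scaling was not tested. *moody* and *elav* by themselves did not overlap, beside 7.90% of all tested genes in this direction. The fat body sum was mostly from *Tsf1*, and 4 of the 7 markers, *Fbp2*, *Fbp1*, *Lsp2* and *Lsp1alpha*, were lower in every library labelled *CR40469*-KO. Of the 6 that were tested this held for 3, beside 2.56% of all tested genes. *Fbp2*, a gene of the larval fat body, had 0.52, 0.88 and 0.95 TPM in the libraries labelled *CR40469*-KO, against 3.02, 2.96 and 2.06 TPM in those labelled control (log2 fold change -1.04, SE 0.17, limma adjusted p = 0.0747). The tracheal sum was mostly from *verm* and *serp*. Of the 4 tracheal markers, all tested, 2 did not overlap between the labels, *verm* and *btl*, beside 7.90% of all tested genes in this direction. The groups overlapped in *serp* and *trh*. Among the tracheal markers, *verm* had the lowest p, with a log2 fold change of 0.36 (limma adjusted p = 0.819). The 5 markers of adult muscle precursors summed to 122.6 to 145.8 TPM in the libraries labelled *CR40469*-KO and to 89.88 to 146.5 TPM in those labelled control. *roX2*, an RNA of the male dosage compensation complex on the X chromosome, had 70.22, 127.40 and 121.13 TPM in the libraries labelled *CR40469*-KO, against 190.00, 122.48 and 216.73 TPM in those labelled control, and these overlapped. *roX1* had 144.17, 227.41 and 211.79 TPM in the libraries labelled *CR40469*-KO, against 229.25, 167.53 and 256.10 TPM in those labelled control. Their part in the result for *Lgr4* was not tested.

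*rk* (FBgn0003255), the bursicon receptor gene, lies on the minus strand of chromosome 2L, from 13982743 to 14001248, with a transcript of 5386 nt in 15 exons. It had 1.63, 1.48 and 2.07 TPM in the libraries labelled *CR40469*-KO, against 1.55, 1.75 and 2.08 TPM in those labelled control. It was the steadiest of the expressed members, with the highest of the 6 libraries at 1.41 times the lowest. Its means were 1.73 ± 0.31 TPM in the libraries labelled *CR40469*-KO and 1.79 ± 0.27 TPM in those labelled control (SD, n = 3 each). The log2 fold change was -0.04 (SE 0.15, 95% interval -0.38 to 0.31, limma adjusted p = 0.924), and its sign changed with the library left out. *NimC2*, which overlaps *rk* by 527 bp on the opposite strand, stayed at or below 0.34 TPM.

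*Lgr1* (FBgn0016650) lies on the plus strand of chromosome 3R, from 17725777 to 17733207, with 2 transcripts of 3152 and 3222 nt. It had 0, 0.01 and 0 TPM in the libraries labelled *CR40469*-KO, against 0.02, 0 and 0.01 TPM in those labelled control. As for *Lgr3*, these values are at the rounding of the files and carry no difference. *CG14321*, 391 bp from *Lgr1*, was at 0.71 to 0.87 TPM in the libraries labelled *CR40469*-KO and at 0.92 to 1.72 TPM in those labelled control (log2 fold change -0.38, SE 0.17, limma adjusted p = 0.819).

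By level, the 5 genes fell in the order *Ilp8*, *rk*, *Lgr4*, *Lgr3* and *Lgr1* in the libraries labelled *CR40469*-KO. There the ranges of *Ilp8*, *rk* and *Lgr4* did not overlap, and those of *Lgr3* and *Lgr1* did. In the libraries labelled control the means gave the order *Ilp8*, *rk*, *Lgr4*, *Lgr1* and *Lgr3*. *Ilp8* in control replicate 2, at 1.29 TPM, was below every value of *rk*, and *Lgr4*, *Lgr1* and *Lgr3* were all at 0 to 0.02 TPM, at the rounding of the files, so that their order cannot be read.

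The 4 receptors were then placed among 35 other genes of receptors for peptide and protein hormones. Most of these were not expressed in the disc, as 33 of the 35 stayed at or below 0.35 TPM in every library and 8 of them were listed at 0 throughout. *rk* had rank 3 of the 39 receptors by mean TPM in both groups, after *CCKLR-17D3*, a drosulfakinin receptor gene, and *Dh31-R*, a receptor gene of the diuretic hormone 31. *Lgr4* had rank 4 by mean TPM in the libraries labelled *CR40469*-KO and rank 16 in those labelled control. The latter rank was tied with *CNMaR* and *TkR86C* at the rounding of the files, so the order around it cannot be read. *CCKLR-17D3* had 17.43, 16.56 and 17.18 TPM in the libraries labelled *CR40469*-KO, against 12.15, 13.59 and 14.62 TPM in those labelled control (log2 fold change 0.32, SE 0.14, limma adjusted p = 0.819). Its groups did not overlap, beside 7.90% of all tested genes in this direction. *Dh31-R* was at 10.30 to 11.44 TPM in the libraries labelled *CR40469*-KO and at 8.90 to 12.66 TPM in those labelled control, and overlapped. *AstC-R2*, an allatostatin C receptor gene named after its values were seen, was under the test's filter. It had 0.12, 0.05 and 0.08 TPM in the libraries labelled *CR40469*-KO, against 0.01, 0.01 and 0 TPM in those labelled control.

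**Figure D4:**
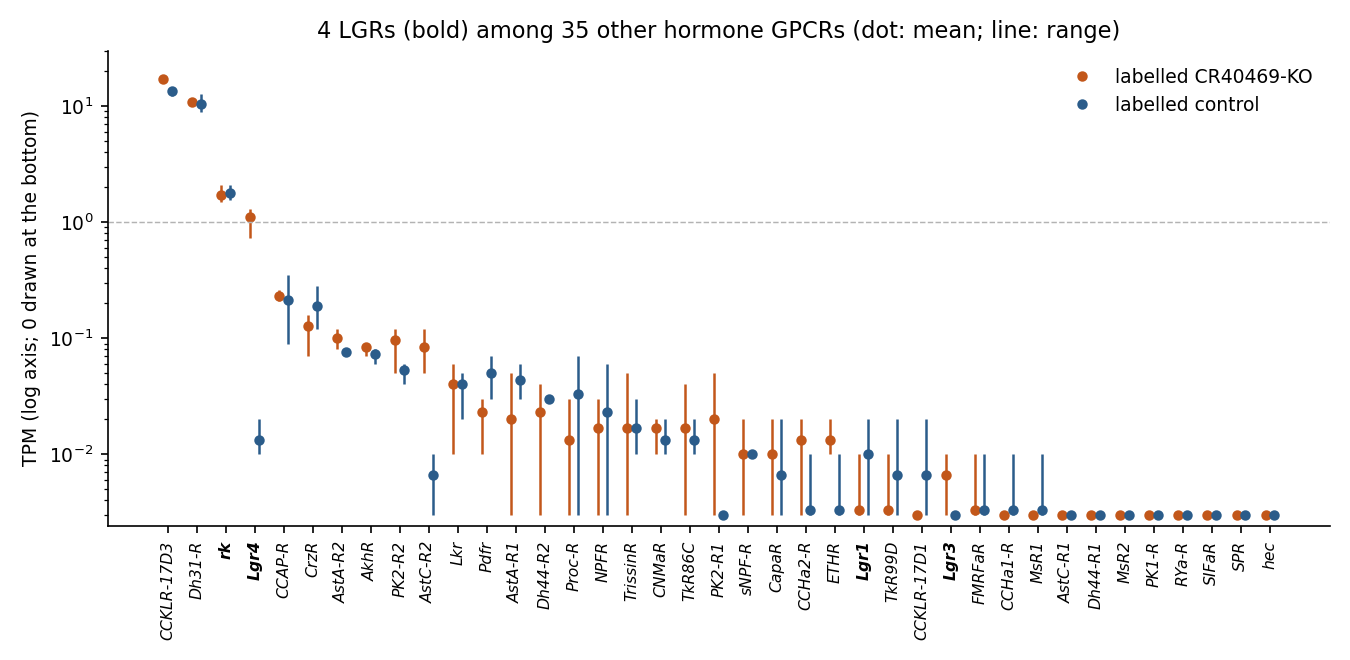
TPM on a log axis of the 4 LGR genes, in bold, and 35 other receptor genes of peptide and protein hormones, with dots for group means, lines for the range of 3 libraries, and the libraries labelled *CR40469*-KO to the left of those labelled control. *CCKLR-17D3* and *Dh31-R* lead, *rk* follows in both groups, and *Lgr4* has rank 4 in the libraries labelled *CR40469*-KO. In those labelled control it has rank 16, tied with *CNMaR* and *TkR86C* at the rounding of the files.

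Genes through which these receptors signal were present in the disc, and none was called. Of 18 genes of cyclic AMP signalling, 15 were tested, with a median log2 fold change of 0.23 beside 0.125 over all tested genes. *Galphas*, the stimulatory G protein subunit gene, was at 169.28 to 200.06 TPM in the libraries labelled *CR40469*-KO and at 171.50 to 184.57 TPM in those labelled control. *rut*, an adenylyl cyclase gene, had 12.95, 6.45 and 7.49 TPM in the libraries labelled *CR40469*-KO, against 5.93, 10.59 and 6.12 TPM in those labelled control. The lowest p on this list was that of *Pka-C3*, a catalytic subunit gene of protein kinase A. It had 6.05, 6.86 and 7.24 TPM in the libraries labelled *CR40469*-KO, against 2.79, 6.30 and 4.37 TPM in those labelled control, and the groups overlapped at 6.05 and 6.30 TPM (log2 fold change 0.54, SE 0.23, unadjusted p = 0.0494, limma adjusted p = 0.819). *Ac13E* and *CrebA* came next, with log2 fold changes of 0.45 and 0.38 and a limma adjusted p of 0.819 each. The groups did not overlap for 1 gene of the list, *Ac13E*, beside 10.5% of all tested genes in either direction.

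Of 29 genes of damage signalling linked to *Ilp8*, 28 were found and tested and none was called, with a median log2 fold change of 0.16. None had an unadjusted p under 0.05, and 1 gene of the 28, *rpr*, had groups without overlap, beside 10.5% of all tested genes. The JNK phosphatase gene *puc* had 22.86, 21.75 and 25.05 TPM in the libraries labelled *CR40469*-KO, against 21.11, 42.17 and 22.42 TPM in those labelled control. Its highest library, control replicate 2, was the library with the least *Ilp8*. *Xrp1*, a transcription factor gene of the stress response, was at 142.18 to 209.02 TPM in the libraries labelled *CR40469*-KO and at 131.52 to 201.53 TPM in those labelled control. *Atf3*, *upd3*, *Ets21C* and *upd2* had their highest values in replicate 1 of each label, as *Ilp8* did. Other genes of the list did not. In *Mmp1*, *wg* and *dpp*, among others, the highest library labelled control was replicate 2, which was the lowest in *Ilp8*. *Atf3* had 7.58, 1.64 and 1.95 TPM in the libraries labelled *CR40469*-KO, against 4.08, 2.71 and 2.23 TPM in those labelled control. *upd3*, a cytokine gene of the JAK/STAT pathway, had 1.24, 0.60 and 0.53 TPM in the libraries labelled *CR40469*-KO, against 0.69, 0.40 and 0.51 TPM in those labelled control. These genes were picked out after their values were seen. The lowest p on the list after *rpr* were those of *sd* and *wts*, genes of the Hippo pathway, with log2 fold changes of 0.30 and 0.37 (limma adjusted p = 0.819 each).

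Of 32 genes of ecdysone timing, 30 were found and 23 were tested, none was called and none had an unadjusted p under 0.05. The median log2 fold change was 0.22. *br*, an early gene of the ecdysone response, had 379.58, 218.93 and 225.96 TPM in the libraries labelled *CR40469*-KO, against 157.82, 269.05 and 164.40 TPM in those labelled control (log2 fold change 0.47, SE 0.28, limma adjusted p = 0.819). *Blimp-1*, another ecdysone-induced transcription factor gene, had a log2 fold change of 0.48 (SE 0.30) and the ecdysone synthesis gene *sad* one of 0.25 (SE 0.14), with the same limma adjusted p. *Ptth*, the gene of the brain hormone that starts ecdysone synthesis, stayed at or below 0.27 TPM in the disc. Of the 9 genes of insulin receptor signalling, all 9 were tested and none was called, with a median log2 fold change of 0.21. *InR*, the insulin receptor gene, had 16.73, 10.20 and 11.02 TPM in the libraries labelled *CR40469*-KO, against 6.80, 14.73 and 7.5 TPM in those labelled control (log2 fold change 0.40, SE 0.30, limma adjusted p = 0.819).

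**Figure D5:**
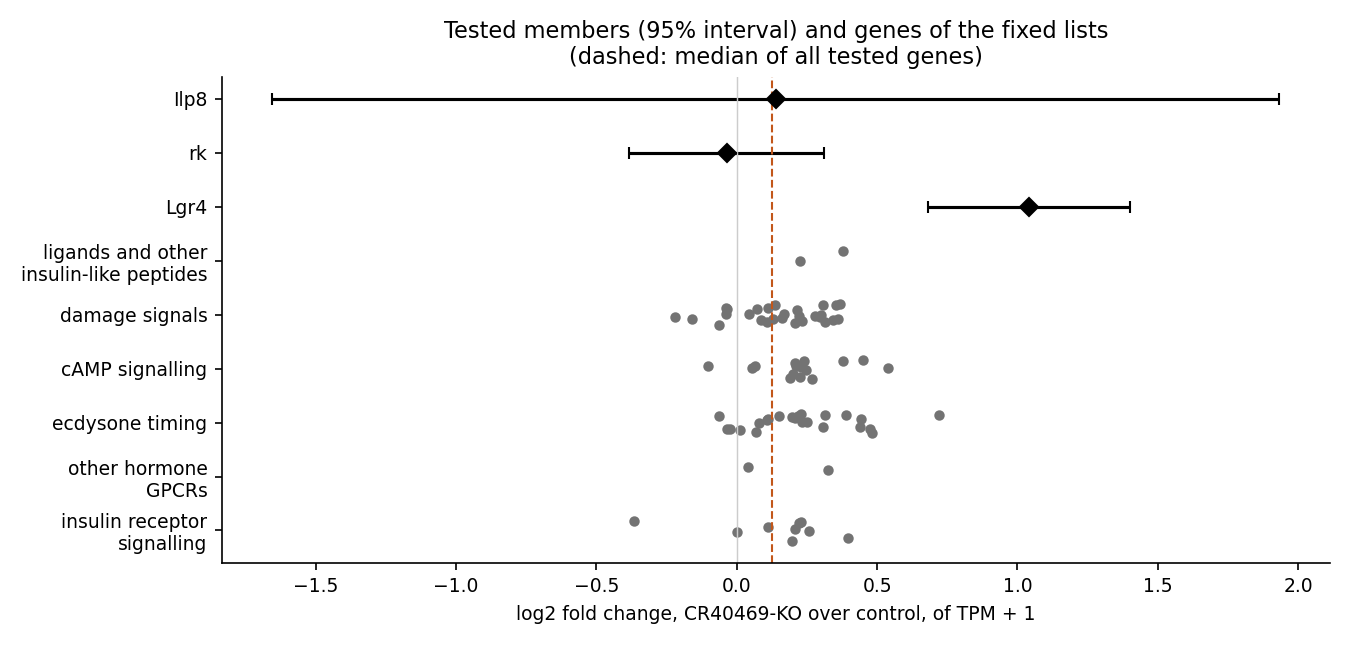
Log2 fold changes of TPM + 1, the libraries labelled *CR40469*-KO over those labelled control, for the 3 tested members with their 95% intervals and for each tested gene of the 6 lists, with a dashed line at the median of all tested genes, 0.125. The interval of *Ilp8* runs from -1.65 to 1.93, that of *rk* from -0.38 to 0.31 and that of *Lgr4* from 0.68 to 1.40, and no gene of the lists was called.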

How the data were processed

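The authors aligned paired-end reads to dm6 using STAR 2.4.0j and quantified genes of the FlyBase annotation with RSEM 1.2.21. The files hold the TPM that the authors deposited, written to 2 decimals, without counts. The mapped reads per library that the study gives were not used here. Whether the quantification used the strand is not given in the sources used here. The symbols and positions came from Ensembl and RefSeq annotations in dm6 coordinates, and a symbol was found for 16402 gene identifiers and not for 53.

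The main test was limma 3.58.1 (R 4.3.3) on log2(TPM + 1), run on the genes that reached 1 TPM in any library, with the genotype label as the only term and Benjamini-Hochberg adjustment over 8051 genes. A gene was called when its adjusted p was under 0.05 and its fold change over 1.7 in either direction, the thresholds of the study. The study applied them with DESeq2 and not with limma, so its calls and those given here can differ. The fit was tested on simulated data, in which changes were planted only in genes with a mean level above those of *Ilp8*, *Lgr4* and *rk*. That test therefore does not show how the fit performs at the level of these genes. Alternatives were another pseudocount, other filters, a replicate block, median-ratio scaling, a variance trend, no fold change threshold and libraries left out.

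The genes and lists were chosen with earlier results of these data known. Named were the 5 genes, their ligands and neighbours, *CR40469*, *CR34335*, *rpr*, *roX1*, *roX2*, the called list genes, the lowest p of each list and the most abundant markers (only those that bear on a result are printed) and the 3 closest patterns to *Ilp8* and *Lgr4*. Genes outside this rule, such as *chinmo*, *ftz-f1*, *Hr3*, *Hml*, *puc*, *Xrp1*, *Atf3*, *upd3*, *Ets21C*, *upd2*, *Mmp1*, *wg*, *dpp*, *Galphas*, *rut*, *Ptth*, *AstC-R2*, *nub* and *vg*, were picked after their values were seen. The list symbols *ban*, *phm*, *EcI* and *sal* found no match. A comparison of protein and promoter sequences had been planned and was not run here.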

Additional observations from a re-analysis of the deposited data

How the results depend on the processing

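The number of called genes was 18, and it was 11 with no filter on low values and 31 with the replicate number as a block. Leaving out 1 library gave between 6 calls (control replicate 1 out) and 35 (*CR40469*-KO replicate 1 out), and it was 42 without replicate 1 of both groups, a setting added after the data were seen. Over all tested genes, same-numbered libraries did not deviate together, with correlations of -0.03, -0.35 and 0.16 between their deviations from the group means. These correlations do not describe single genes. *Ilp8* was highest in replicate 1 and lowest in replicate 2 of each label. Under the block its log2 fold change was 0.14 with a smaller standard error, 0.29 in place of 0.78 (limma adjusted p = 0.952). No member was called under the block. The log2 fold change of *Ilp8* ranged from -0.64 to 0.65 over the fits that left out 1 library and was -0.09 without replicate 1 of both groups; under the other alternatives its sign was kept. That of *Lgr4* ranged from 0.97 to 1.18 with limma adjusted p from 0.0138 to 0.292, was 1.18 without replicate 1 of both groups, and was 3.37 with a pseudocount of 0.1. Where 1 TPM was required in 3 or more libraries *Lgr4* was not tested, since only 2 libraries reached 1 TPM. The log2 fold change of *rk* ranged from -0.125 to 0.036 and was 0.029 without *CR40469*-KO replicate 2. No list gene was called under any alternative. Values near 0.01 TPM are at the rounding of the files.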
